A study of Mus musculus with 4 samples.

Results

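Hematopoietic progenitor cells (HPC) of mouse bone marrow were set against short-term repopulating stem cells (ST-HSC), the step at which CD34-positive stem cells give way to progenitors without the surface antigen Sca-1. Each population was measured on 1 array, and the comparison covers 21331 probe sets that stand for 12662 genes. They were chosen from 45037 probe sets other than controls, of which 34945 (18193 genes) carry exactly 1 gene symbol. A probe set entered where its signal was at least 120 on the HPC or the ST-HSC array, a floor near the median signal of 113.9 on HPC and 114.0 on ST-HSC. Cd2ap, a cytoskeletal adaptor, was among the 9 probe sets just inside at 120 (HPC) and 15.5 (ST-HSC). Tie1, an endothelial receptor, was among the 10 just outside at 30.3 and 119.9.

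The series holds 4 single-colour Affymetrix arrays, 1 each of HPC, ST-HSC, long-term repopulating stem cells (LT-HSC) and granulocytes, and its stated purpose is to check that each cell type has an expression profile of its own. For the 3 immature populations, marrow was enriched on c-Kit beads and stained for CD34, Sca-1, c-Kit and a lineage cocktail against myeloid cells (CD11b, Gr-1), T cells (CD3, CD4, CD8), B cells (B220) and red cells (Ter119), with dead cells gated out by DAPI. ST-HSC were sorted as CD34+LKS cells (lineage-negative, c-Kit-positive, Sca-1-positive), LT-HSC as CD34-LKS cells, and HPC as LKS- cells. Granulocytes were sorted for strong Gr-1 and high granularity. No treatment or genotype separates the groups, and the labels do not name the strain, age or number of mice. Cells of every type were thawed and loaded in lots of 50 or 100 into emptied egg coats (zonae pellucidae), and RNA of 50 to 200 cells was amplified in 2 rounds.

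Blood formation starts from stem cells that renew themselves and passes through progenitors that divide fast and are committed to some lineages. In mouse marrow, Sca-1-positive lineage-negative c-Kit-positive cells contain the stem cells and the multipotent progenitors, while the Sca-1-negative fraction is a mixture of granulocyte-monocyte, megakaryocyte-erythroid and earlier common myeloid progenitors. Stem cells are known for transcription factors such as Mecom, Meis1 and the Hox genes. Granulocyte-monocyte progenitors are known for the enzymes of primary granules and for cytokine receptors such as the macrophage colony-stimulating factor receptor.

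Both arrays were on 1 scale, with a trimmed mean of 500.0 units, a 75th percentile of 418 on HPC and 445 on ST-HSC, and 48.8% of probe sets at the floor or more on each. Values under 120 were set to 120 before the ratio, so a fold with 1 side there is a lower bound and is written as at least N-fold. That holds for 2723 genes, 21.5% of those compared. A gene is given by its brightest probe set over both arrays. With 1 array a side there was no test, and no fold below has an error from replicates. The log2 differences of different probe sets of 1 gene had an SD of 0.67 (3763 genes), which serves as a yardstick of measurement scatter only. Over all genes the log2 difference, HPC minus ST-HSC, had a median of 0.06, quartiles of -0.40 and 0.50, and an SD of 0.83.

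Of the 12662 genes, 196 (1.55%) had at least 4-fold higher signal in HPC and 198 (1.56%) at least 4-fold lower. At 2-fold the counts were 1191 higher (9.41%) and 1146 lower (9.05%), and the gene lists below are read against these shares. Those lists were chosen with earlier results of these data known, so their counts, medians and ranks are descriptions and not tests. A list member under the floor on 1 of the 2 arrays could count only toward the other. Counted by probe set, 316 (1.48%) were 4-fold higher and 398 (1.87%) 4-fold lower. The even split depended on the scale: with the arrays scaled to their hybridization controls, whose signal on HPC was 0.845 of that on ST-HSC, 277 genes were 4-fold higher and 126 lower, so the higher share of both went from 49.7% to 68.7%. That scale moved the median of all genes to 0.28. With the genes cut by brightness into 4 bins of equal size, those 4-fold apart were 7.93% of the bin next to the dimmest, 3.67% of the one above it and 0.853% of the brightest. The dimmest bin cannot reach 4-fold by construction, and none did.

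**Figure D1:**
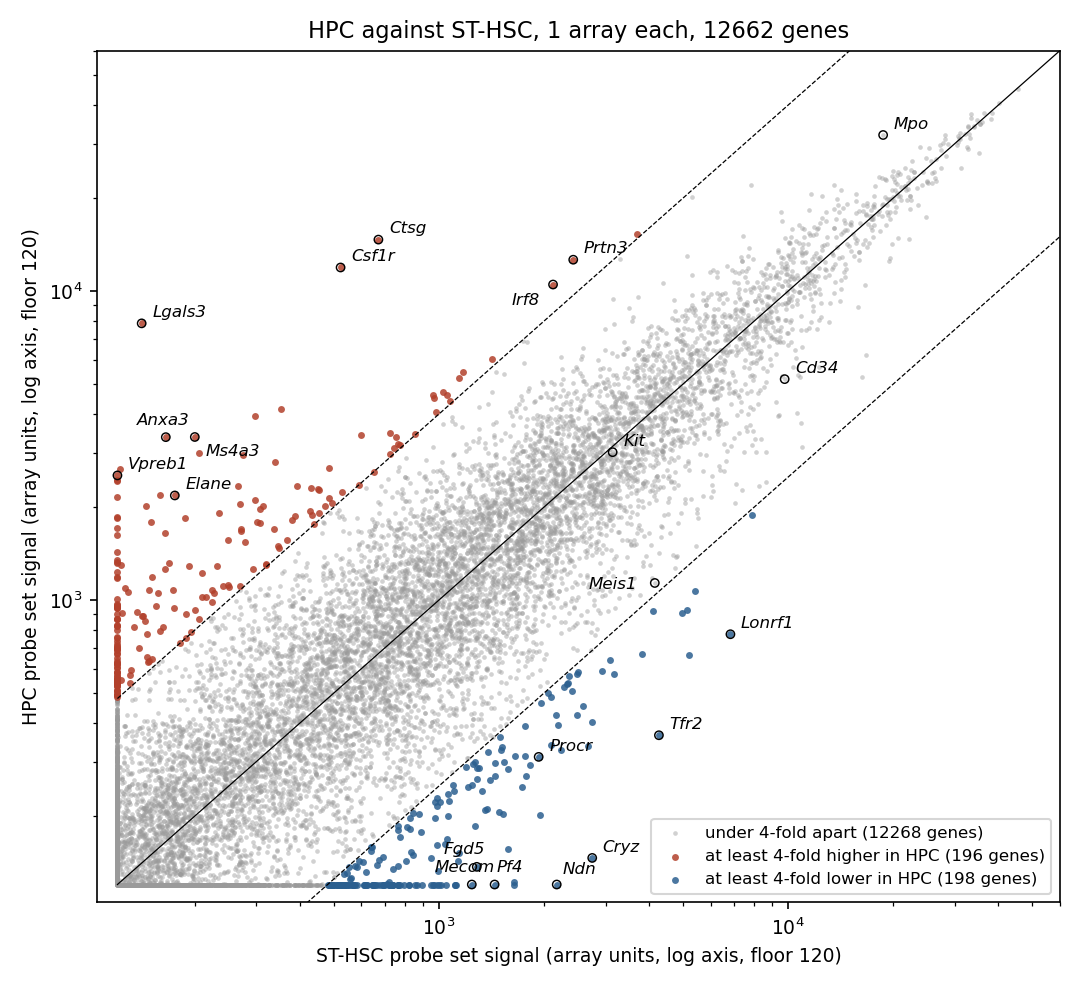
Each point is 1 gene, with its ST-HSC signal across and its HPC signal up, in array units on log axes, and signals under 120 drawn at 120. The solid line marks equal signals and the dashed lines 4-fold; 196 genes lie above the upper dashed line and 198 below the lower one, with Lgals3, Csf1r and Ctsg far above and Cryz, Tfr2 and Ndn far below.

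The genes with the greatest excess in HPC included several known from granulocytes, monocytes and their precursors. Lgals3, which encodes the carbohydrate-binding lectin galectin-3 of myeloid cells, read 7865 in HPC, 141 in ST-HSC, 1969.8 in LT-HSC and 39336 in granulocytes, 55.9-fold higher in HPC than in ST-HSC. Csf1r, the receptor for macrophage colony-stimulating factor, read 11928, 523, 209.8 and 13089 in the same order, a 22.8-fold difference. Its 3 probe sets were all higher in HPC, by 1.37 to 4.55 on the log2 scale. Ctsg, which encodes cathepsin G of primary granules, was at 14683 in HPC against 671 in ST-HSC (21.9-fold), and was low both in LT-HSC (188) and in granulocytes (27.3). Of these 3 genes, Lgals3 and Csf1r thus stayed bright in granulocytes, and Ctsg did not. In these sorted pools, more cells of a type and more RNA per cell cannot be told apart.

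Primary granules are the first to form in a maturing neutrophil, and their enzymes are made by promyelocytes and their precursors. Of 16 primary granule and promyelocyte genes listed, 15 were measured, 8 were at least 2-fold higher in HPC, against 9.41% of all genes, and 0 were 2-fold lower; the list's median log2 difference was 1.08, against 0.06 over all genes. The neutrophil serine proteases Elane, Prtn3 and Ctsg are shown with the 250 bases before the start of each gene, since they are of 1 family and were high together. The sequences are RefSeq's, of the mouse build GRCm38.p6, read 5′ to 3′ on the gene's strand. Capitals mark letters that match the core bound by PU.1 (GAGGAA) or a RUNX core (TGTGGT), on either strand.
Elane, chr10:79886062-79886311, plus strand: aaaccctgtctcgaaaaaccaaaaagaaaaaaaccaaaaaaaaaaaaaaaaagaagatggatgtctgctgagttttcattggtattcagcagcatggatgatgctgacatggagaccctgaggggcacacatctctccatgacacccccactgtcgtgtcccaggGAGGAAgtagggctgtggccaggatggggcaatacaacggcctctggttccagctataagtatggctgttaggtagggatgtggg
Prtn3, chr10:79879417-79879666, plus strand: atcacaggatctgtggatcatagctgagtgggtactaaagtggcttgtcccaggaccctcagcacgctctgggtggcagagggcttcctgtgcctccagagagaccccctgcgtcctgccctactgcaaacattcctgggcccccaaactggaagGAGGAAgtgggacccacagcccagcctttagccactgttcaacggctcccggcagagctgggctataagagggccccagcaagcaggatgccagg
Ctsg, chr14:56102575-56102824, minus strand: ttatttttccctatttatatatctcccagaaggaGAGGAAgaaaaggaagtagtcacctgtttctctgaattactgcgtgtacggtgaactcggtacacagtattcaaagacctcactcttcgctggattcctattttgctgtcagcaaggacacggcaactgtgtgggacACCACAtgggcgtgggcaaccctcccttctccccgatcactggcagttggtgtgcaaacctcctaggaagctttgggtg
In Elane and Prtn3, both on chr10, the PU.1 core begins 85 and 95 bases before the start. In Ctsg it begins 216 bases before, and the RUNX core, read on the other strand, 79 bases before. Of the 8 granule genes that were 2-fold higher, 7 had a promoter in the RefSeq table, and 5 of those held a PU.1 core, 2 a RUNX core, 1 a C/EBP site (TTGCNNAA) and 0 a GATA site (AGATAA), each searched on both strands. Among all 32851 promoter windows of that length, 23.3% held the PU.1 core, 14% the RUNX core, 9.56% the C/EBP site and 9.99% the GATA site. A match describes letters and shows neither binding nor a cause.

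Elane, neutrophil elastase, read 2181 in HPC, 175 in ST-HSC, 89.3 in LT-HSC and 51.2 in granulocytes, 12.4-fold higher in HPC than in ST-HSC. Prtn3, proteinase 3, read 12638, 2425, 2164 and 9.8 in that order (5.21-fold). Both proteases were thus highest in HPC and under the floor in mature granulocytes. Ms4a3, a membrane protein of granulocyte-monocyte progenitors, was at 3372 against 199.9 (16.9-fold), and Cst7, which encodes the protease inhibitor cystatin F, at 3476 against 726 (4.79-fold). Mpo, myeloperoxidase, read 32023 in HPC, 18718 in ST-HSC and 1149 in LT-HSC, and HPC and ST-HSC differed by 1.71-fold. Of the genes named here, Mpo was thus under 2-fold where Elane, Prtn3, Ms4a3 and Cst7 were past 4-fold. Hp, which encodes the hemoglobin-binding protein haptoglobin, read 2424 in HPC and 8.9 in ST-HSC (at least 20.2-fold) and was highest in granulocytes at 37301. Mgst1, a microsomal glutathione transferase, was 2.62-fold higher in HPC. Ctsc, the protease that activates the granule proteases, was 2.11-fold higher by its brightest probe set, but its other probe set had a log2 difference of -0.42.

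Cytokine, immunoglobulin and pattern receptors of granulocytes and monocytes formed the list with the highest median of the 23 theme lists, 1.37. Of 26 listed, 23 were measured. At least 2-fold higher in HPC were 14, against 9.41% of all genes, and 1 was at least 2-fold lower, against 9.05%. Fcgr3, a low-affinity receptor for IgG, read 2163 in HPC and 51.9 in ST-HSC (at least 18.0-fold). Its partner chain Fcer1g, which carries the signal of Fc receptors, read 1088 and 308 (3.54-fold), and Tyrobp (DAP12), another signalling adaptor, 4052 and 981 (4.13-fold). The receptor and both adaptors were thus higher in HPC. Ly86 (MD-1), which pairs with the Toll-like protein RP105, read 4155 against 354 (11.7-fold), and Tlr2, a sensor of bacterial lipoproteins, 3197 against 762 (4.20-fold). Beta chains of the GM-CSF and interleukin-3 receptors were higher too, Csf2rb at 6047 against 1423 (4.25-fold, though its second probe set had a log2 difference of -0.05) and Csf2rb2 at 1499.6 against 626 (2.40-fold). Csf3r, the receptor for granulocyte colony-stimulating factor, was the 1 counted as lower, at 1017 in HPC and 2404 in ST-HSC, 2.36-fold lower. Csf2ra, the GM-CSF receptor alpha chain, read 284 against 518, and its 2 probe sets disagreed, at -0.86 and 1.93 in log2. Ccr2, a chemokine receptor of monocytes, was 3.45-fold higher by its brightest probe set, but its 4 probe sets ran from -1.44 to 1.79 in log2.

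Transcription factors of the myeloid lineages differed less: 5 of 16 measured were at least 2-fold higher, 1 was lower, and the median was 0.63. Over all genes, 9.41% were 2-fold higher and 9.05% lower. Nfil3, 1 of the 5, read 428 in HPC and 11.6 in ST-HSC, so it could count only as higher. With a floor of 240 its log2 difference was 0.83. Irf8, which drives monocyte and dendritic cell fate, read 10505 in HPC, 2123 in ST-HSC, 3319.5 in LT-HSC and 653 in granulocytes, 4.95-fold higher in HPC, and its second probe set had a log2 difference of 1.46. Cebpa, required for the step to granulocyte-monocyte progenitors, read 856 and 580.1 (1.48-fold), and Spi1, which encodes PU.1, 654 and 459 (1.42-fold). Neither master regulator reached 2-fold. Cebpd was 2.51-fold higher, with probe sets at 1.31 and 1.33 in log2. Cebpb (2.24-fold) and Zeb2 (4.00-fold) were higher by their brightest probe sets, with other probe sets at -0.57 and 0.11 in log2. Klf4, a factor of monocyte differentiation, was 2.77-fold lower in HPC, 1003 against 2777, and both of its probe sets were lower.

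Monocyte and macrophage markers and markers of mature neutrophils were looked at next, since Gr-1 and CD11b in the lineage stain serve to remove such cells. Of 14 monocyte and macrophage markers, 8 were measured and 6 were at least 2-fold higher in HPC, against 9.41% of all genes. The summed signal of the measured markers was 21442 in HPC and 4804 in ST-HSC, of which Csf1r alone gave 11928 and 523. Csf1r and Ccr2 were counted in the receptor list as well. F13a1, a coagulation factor subunit of monocytes, read 2111 against 298 (7.09-fold) and Cd14, the lipopolysaccharide co-receptor, 1768 against 438 (4.04-fold). Macrophage markers were mixed. Cd68 read 750.5 against 285.5 (2.63-fold higher) and Adgre1 297.9 against 140.4 (2.12-fold higher). Marco, C1qa, C1qb and Cd163 were under the floor on both arrays, and Lyz2, lysozyme, was 3122 against 2603. The part of mature monocytes in the receptor list's counts was not tested. Of 14 mature neutrophil markers, 10 were under the floor on both arrays and 0 of the 3 measured were 2-fold apart; their summed signals were 449.7 in HPC and 425 in ST-HSC, against 158590.1 in granulocytes and 12148 in LT-HSC.

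Proteases of the basophil and mast cell branch were among the genes higher in HPC. Mcpt8, a basophil protease, read 1096 in HPC, 126 in ST-HSC, 10.5 in LT-HSC and 20.3 in granulocytes, 8.67-fold higher in HPC. Cpa3, mast cell carboxypeptidase, read 1186, 151, 486 and 128 in that order (7.87-fold). Both were highest in HPC. Of the 20 genes listed, 8 were measured, 4 were at least 2-fold higher, against 9.41% of all genes, and 0 lower. The other 2 that were higher, Hdc (histidine decarboxylase) and Siglecf, had signals of 263 and 246 in HPC and were under the floor in ST-HSC. So were Ms4a2, Tpsb2 and Prg2, and all of these entered through HPC and could not count as lower. Hdc read 29776 in granulocytes, and its second probe set was under the floor in both HPC and ST-HSC. Of 9 markers of these cells 5 were measured, with summed signals of 2669 in HPC and 484 in ST-HSC, and Fcer1a, Epx and Cma1 were under the floor on both arrays.

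**Figure D2:**
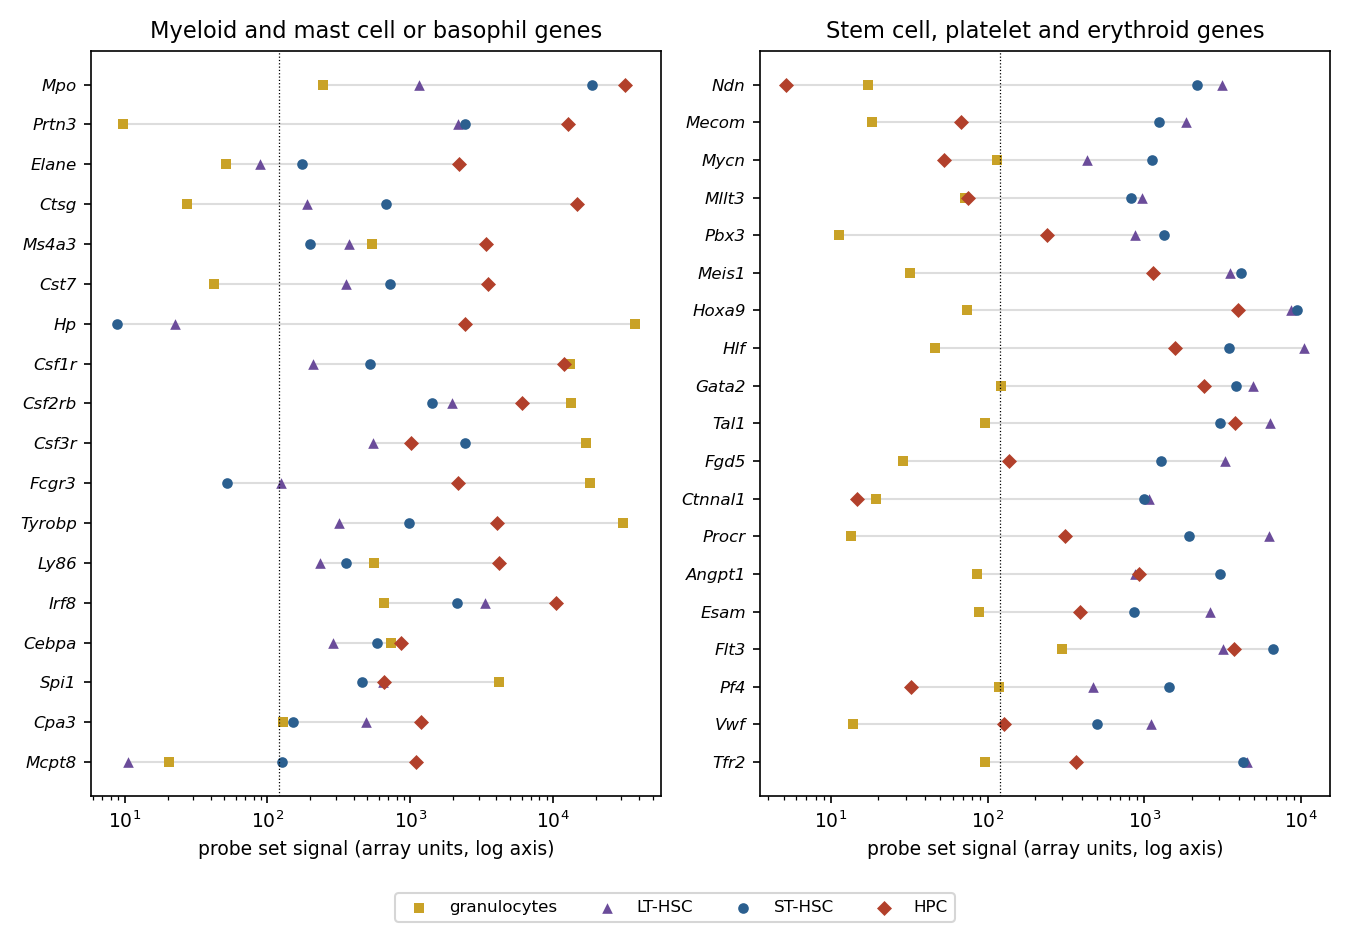
Signals of 1 probe set per gene on the 4 arrays, in array units on a log axis, with the dotted line at 120 and the grey line joining the lowest and the highest. On the left, HPC (diamonds) exceed ST-HSC (circles) for every gene drawn except Csf3r; on the right, HPC lie below ST-HSC for every gene drawn except Tal1.

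Many transcription factors known from stem cells were lower in HPC. Of 36 listed, 31 were measured. At least 2-fold lower in HPC were 11, against 9.05% of all genes, and 0 were higher, against 9.41%. The median was -0.55. Of the 11, Ndn, Mecom, Mycn, Mllt3, Hoxa10 and Sox6 were under the floor in HPC, entered through ST-HSC and could not count as higher. Hoxb2, Prdm16 and Tcf15 had the same limit, and Hoxb4 and Klf12 the reverse one. Ndn, which encodes the imprinted growth suppressor necdin, read 5.2 in HPC, 2175 in ST-HSC, 3118 in LT-HSC and 17.3 in granulocytes, at least 18.1-fold lower; its 7 probe sets ranged from -4.18 to -0.09. Mecom, a zinc finger factor needed for stem cell maintenance, read 68.0, 1242, 1829 and 18.4 (at least 10.4-fold lower), although its second probe set had a log2 difference of 0.37. Mycn, a Myc family factor, read 52.7 in HPC and 1113 in ST-HSC (at least 9.27-fold). By its brightest probe set, each of the 3 genes was under the floor in HPC and above it in both stem cell populations. The second Mecom probe set was the reverse, at 155.1 in HPC, 27.5 in ST-HSC and 65.6 in LT-HSC.

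Meis1, a homeobox cofactor of the Hox proteins, read 1136 in HPC and 4152 in ST-HSC (3.66-fold lower), and Pbx3, its partner, 241 and 1328 (5.52-fold). The Hox genes were mixed. Past 2-fold on the lower side were Hoxa9 at 3961 against 9430.0 (2.38-fold), Hoxa10 at 100.4 against 738 (at least 6.15-fold) and Hoxb3 at 124 against 262 (2.12-fold). The second probe sets of Hoxa9 and Hoxa10 were at -0.27 and -0.05 in log2. Under 2-fold, Hoxa5 was at -0.71, Hoxb2 at -0.25, Hoxa3 at 0.32 and Hoxb4 at 0.90 in log2, and Hoxa7 and Hoxb5 were under the floor on both arrays. Mllt3, which sustains stem cell self-renewal, was at least 6.83-fold lower (75.5 against 819) and Sox6, a factor of erythroid and other lineages, at least 4.03-fold lower (42.1 against 483). Hlf, a leucine zipper factor, stood in steps, with 10387 in LT-HSC, 3458 in ST-HSC and 1566 in HPC (2.21-fold lower in HPC than in ST-HSC). The factors shared by stem cells and progenitors that follow were within 2-fold. Gata2 read 2394 against 3841, Tal1 3782 against 3015 and Lmo2 4409 against 5372.

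Surface and niche genes of stem cells gave a like picture, with 11 of 30 measured at least 2-fold lower, 1 higher and a median of -0.64. Over all genes, 9.05% were 2-fold lower and 9.41% higher. Ctnnal1 and Jam2, counted as lower, and Tek and Trpc6 were under the floor in HPC and could not count as higher. Fgd5, a guanine nucleotide exchange factor used to mark stem cells, read 137 in HPC, 1284 in ST-HSC and 3277 in LT-HSC (9.38-fold lower in HPC than in ST-HSC). Procr, the endothelial protein C receptor, read 311, 1931 and 6229 (6.21-fold), and Esam, an endothelial adhesion molecule, 387, 855 and 2637 (2.21-fold). In these 3 genes the order was LT-HSC, ST-HSC, HPC from high to low. Ctnnal1 (alpha-catulin), another stem cell marker, was 14.7 in HPC and 989 in ST-HSC (at least 8.24-fold). Angpt1, which encodes the Tie2 ligand angiopoietin-1, was 3.31-fold lower at 921 against 3047, with LT-HSC at 865, so of the 3 immature populations ST-HSC were highest. Flt3, the receptor that marks multipotent progenitors, was 3741 against 6634, 1.77-fold lower. The 1 gene that was higher was Clec2i (3.56-fold), a C-type lectin. Jam2 and Vldlr, counted as lower, had other probe sets with log2 differences of up to 0.88 and 1.02. Since endothelial cells share some of these genes, their markers were also read: of 10 stromal and endothelial markers 8 were measured and 1 was 2-fold lower, with summed signals of 1330.1 in HPC and 1292 in ST-HSC, and Cdh5 and Pecam1 were under the floor on both arrays.

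Among the sorting antigens, Kit was even, at 3011 in HPC and 3144 in ST-HSC. Cd34 read 5190.0 in HPC, 9778 in ST-HSC and 2384 in LT-HSC, 1.88-fold lower in HPC than in ST-HSC; the HPC gate did not select on CD34. Ptprc (CD45, of which B220 is an isoform) was at 9845 against 7178, with its 2 probe sets at 0.46 and -1.22 in log2, Cd3e at 153 against 155, and Itgam and Cd4 were under the floor on both arrays. Cd8a read 351 against 158 (2.22-fold higher), but its 4 probe sets ran from -0.19 to 1.15 in log2. Ly6a, the gene for Sca-1 itself, and Ly6g, for Gr-1, had no single-symbol probe set and were not analysed here. The Sca-1 part of the gate is therefore unchecked by these values.

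Platelet and erythroid genes had no common direction. Pf4, platelet factor 4, read 32.7 in HPC, 1444 in ST-HSC, 472 in LT-HSC and 119 in granulocytes, at least 12.0-fold lower in HPC than in ST-HSC. Vwf, von Willebrand factor, read 127, 499 and 1097 in the 3 immature populations (3.94-fold lower) and Mmrn1, multimerin 1, 177, 886 and 1516 (5.01-fold lower). These 3 genes are ones that stem cells are known to share with megakaryocytes. Of 19 megakaryocyte and platelet genes measured, 4 were at least 2-fold lower and 3 higher, against 9.05% and 9.41% of all genes. Those higher were Itgb3, the beta subunit of the fibrinogen receptor (2.88-fold), Treml1 (2.15-fold) and Selp (2.84-fold by its brightest probe set). The other Selp probe sets were lower in HPC, at -3.10 and -0.18 in log2. The list's median of -0.48 turned to as much as 0.37 under other processing, so it has no settled direction.

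Erythroid progenitor genes split 4 higher and 5 lower of 24 measured, against 9.41% and 9.05% of all genes. Their median was -0.01, and its sign depended on the processing. Tfr2, transferrin receptor 2, read 365 in HPC and 4267 in ST-HSC (11.7-fold lower), but its other probe set had a difference of -0.66 in log2. Car2, carbonic anhydrase 2, was 3.54-fold lower, 2337 against 8268, and Hemgn, hemogen, at least 3.58-fold lower. Epor, the erythropoietin receptor, was the other way, at 355 in HPC and 56.2 in ST-HSC (at least 2.96-fold higher), as was Gfi1b, a repressor needed for red cells and platelets (868 against 268, 3.24-fold). Gata1, the main erythroid factor, was dim on both arrays, 247 against 173, and Klf1 read 189 against 96.8. The other genes counted as higher were Mfsd2b, a lipid transporter of red cells, and Mt2, a metal-binding metallothionein that is not specific to erythroid cells. Of 12 heme synthesis genes listed, 10 were measured and 2 were higher, Alas1 (2.76-fold), which encodes the first enzyme of the pathway outside red cells, and Slc25a38 (2.01-fold). The mature red cell markers Hba-a1, Alas2, Slc4a1 and Epb42 were under the floor on both arrays.

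**Figure D3:**
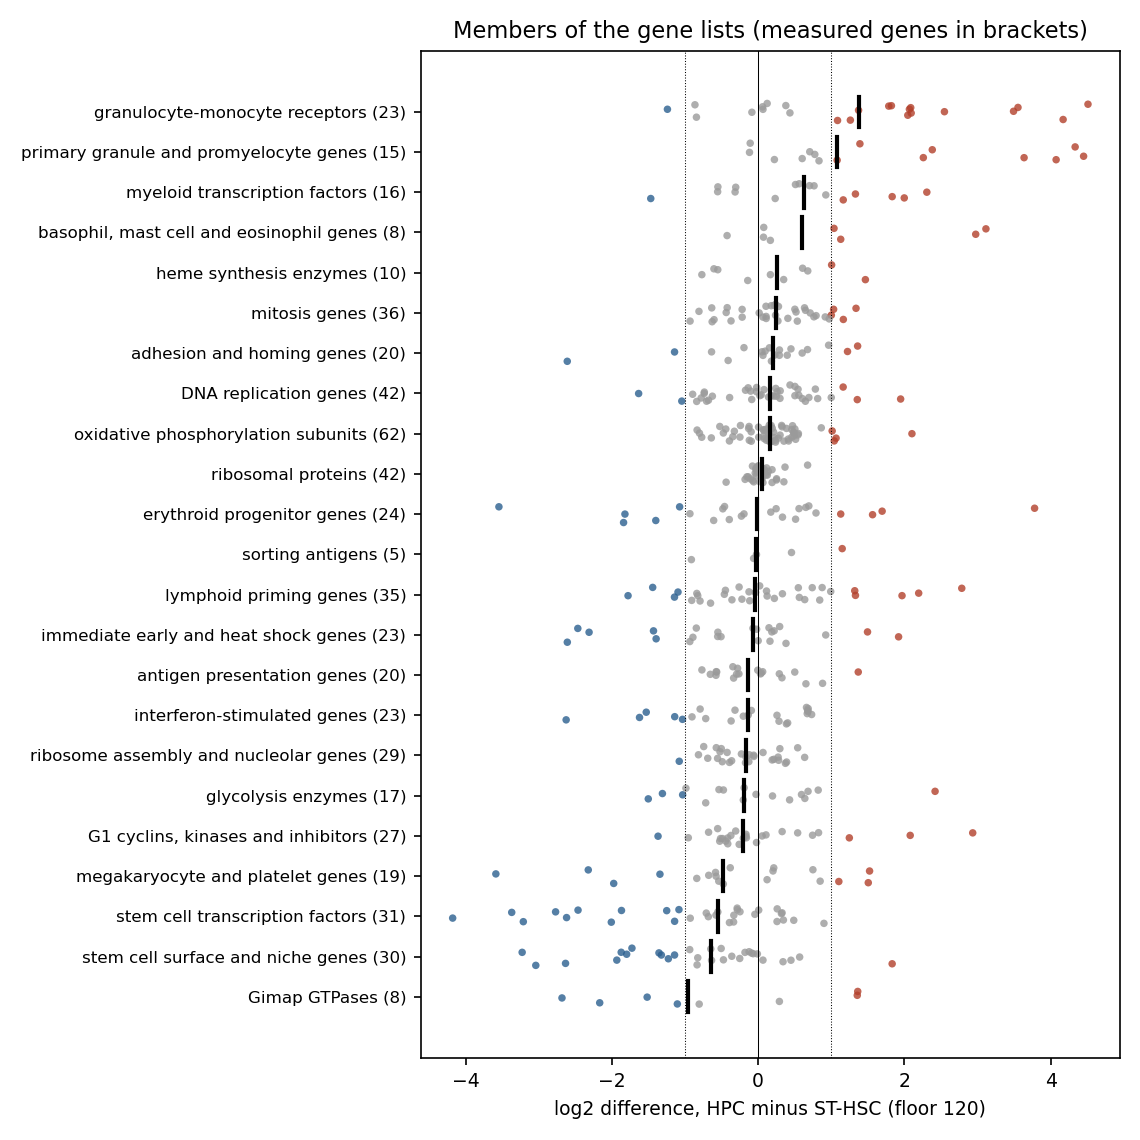
Each point is a measured gene of a gene list, placed by its log2 difference between HPC and ST-HSC, red at 2-fold or more higher in HPC and blue at 2-fold or more lower; black bars are list medians and dotted lines mark 2-fold. The myeloid lists lie at the top with medians up to 1.37, the 2 stem cell lists and the Gimap genes at the bottom.

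Genes of the B lineage were brighter on the HPC array than on the ST-HSC array. Vpreb1, a part of the surrogate light chain of the pre-B cell receptor, read 2532 in HPC, 15 in ST-HSC, 4815 in LT-HSC and 28.4 in granulocytes (at least 21.1-fold higher in HPC than in ST-HSC). Igll1, its partner chain, measured by a probe set of shared sequence, read 1862, 29.1, 4234 and 41.6 (at least 15.5-fold). Vpreb1 and Igll1 were both brightest in LT-HSC. A second Igll1 probe set was under the floor in HPC and ST-HSC, at 22.3 and 88.5. Cd79b, a signalling chain of the receptor, read 1942, 428 and 3562 in HPC, ST-HSC and LT-HSC, and Blnk, an adaptor of that receptor, 4704, 1027 and 14001 (4.58-fold). By the brightest probe set of each of these genes, the ST-HSC array was the lowest of the 3. Ebf1, the factor that starts the B program, was dim at 302 against 44.7 and its 3 probe sets ran from 0.04 to 1.33. Of 12 B-lineage markers 8 were measured and 6 were at least 2-fold higher, against 9.41% of all genes. Vpreb1, Igll1, Vpreb3, Ebf1 and Cd79a were under the floor in ST-HSC, entered through HPC and could not count as lower. Summed signals were 17139 in HPC, 8014 in ST-HSC and 22198 in LT-HSC. Ighm gave the largest part of each sum, at 9603, 7249 and 7223, was within 2-fold, and read 7732 in granulocytes. Pax5 and Ms4a1, of committed and mature B cells, were under the floor on both arrays. The part of B-lineage cells in these differences was not tested.

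**Figure D4:**
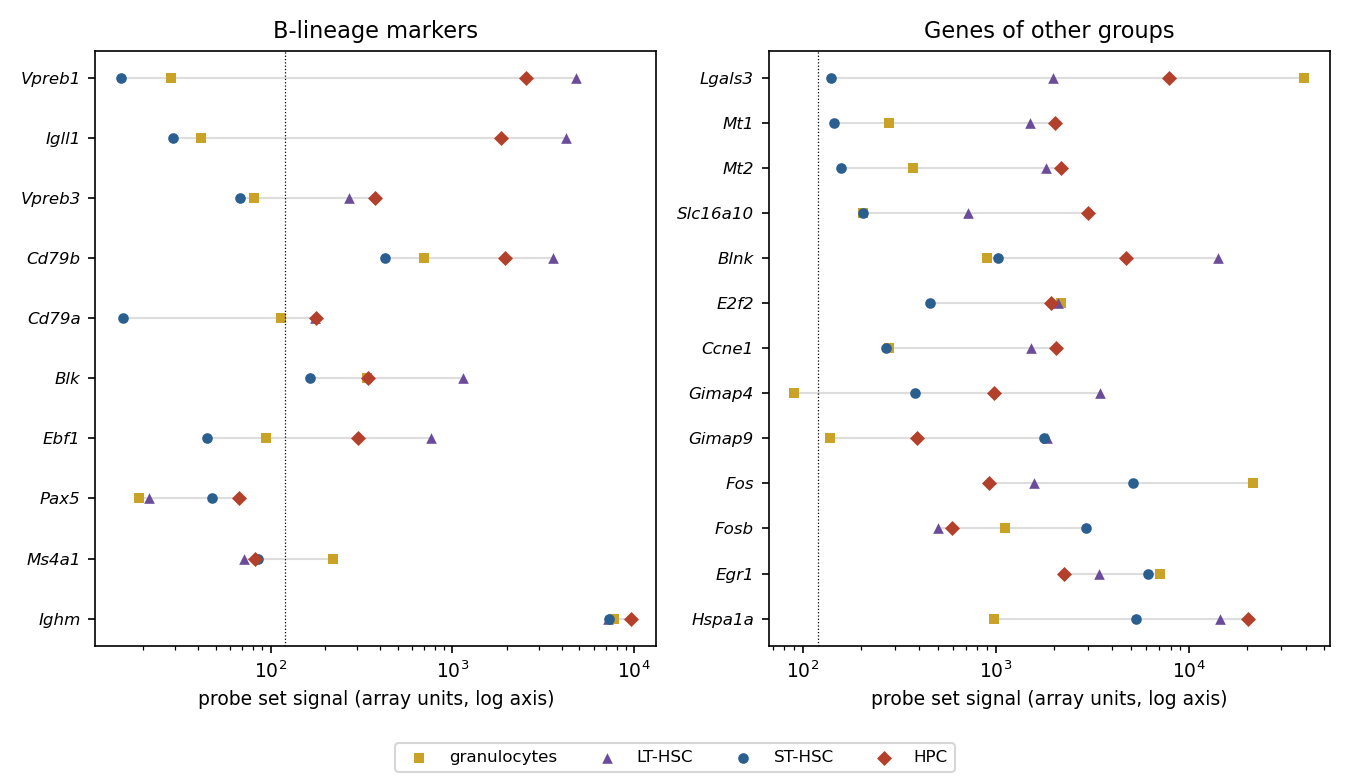
Signals of 1 probe set per gene on the 4 arrays, in array units on a log axis, with the dotted line at 120. For Vpreb1, Igll1, Cd79b and Blnk the ST-HSC circle lies left of both HPC and LT-HSC; Pax5 and Ms4a1 lie left of the floor in HPC, ST-HSC and LT-HSC.

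The lymphoid priming list, which also holds Ebf1 and Blnk, had no common direction. Of 35 measured, 5 were at least 2-fold higher and 4 lower, and the median of -0.04 took either sign under other processing. The shares over all genes, for this list and the Gimap genes below, were 9.41% higher and 9.05% lower. Il7r, the interleukin-7 receptor, read 469 in HPC and 112 in ST-HSC (at least 3.91-fold higher), and Gpr183, an oxysterol receptor, 827 and 90.4 (at least 6.89-fold; its other probe set was even at 0.00). Sox4, a factor of early lymphocytes and stem cells, was lower at 2054 against 7057 (3.44-fold), as was Cd27, a receptor of the tumour necrosis factor family (734 against 1624, 2.21-fold). Dntt, terminal transferase, was bright on both arrays at 8862 and 15859. The Gimap genes, small GTPases of lymphocytes, were split: of 8, Gimap7 (at least 6.43-fold), Gimap9 (4.49-fold), Gimap8 (2.87-fold) and Gimap6 (2.15-fold) were lower in HPC, and Gimap4 (2.57-fold) and Gimap5 (at least 2.56-fold) were higher. The members of this gene family therefore differed in opposite directions.

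Cell cycle genes were close to even. Of 42 DNA replication genes 3 were at least 2-fold higher and 2 lower, with a median of 0.16. Of 36 mitosis genes 4 were higher and 0 lower, with a median of 0.24. The shares over all genes, for these lists and those that follow here, were 9.41% higher and 9.05% lower. Mcm6, a replicative helicase subunit, read 11163 in HPC and 10124 in ST-HSC, and Mki67, the proliferation antigen, 4527 and 3836. Both arrays thus carried strong replication signals. Some genes of DNA synthesis and S-phase entry differed further. Rrm2, the small subunit of ribonucleotide reductase, read 12719.9 in HPC, 3295 in ST-HSC and 6495 in LT-HSC (3.86-fold higher, with its 3 probe sets from 1.05 to 2.08 in log2). Ccne1, cyclin E1, read 2053, 269 and 1512 (7.65-fold), and E2f2, a factor that switches on S-phase genes, 1917, 453 and 2092 (4.23-fold). In all 3, ST-HSC were lower than LT-HSC as well. Pola1, DNA polymerase alpha, was the reverse at 1295 against 4025 (3.11-fold lower). Cdkn2d, an inhibitor of cyclin D kinases, was 2.58-fold lower. Ribosomal protein genes, which every cell uses, gave a median of 0.05 over 42 measured, with 0 at 2-fold in either direction and a range of -0.44 to 0.68. Of 62 oxidative phosphorylation subunits measured, 4 were higher and 0 lower (median 0.16).

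The signal of a gene was not always backed by its other probe sets. Of the 196 genes 4-fold higher in HPC, 85 had another member probe set, and the median of the others was at least 2-fold the same way in 30 of them (35.3%), the same way but under 2-fold in 34, and at 0 or opposite in 21. Of the 198 genes 4-fold lower, 90 had others: 27 (30.0%) were at least 2-fold the same way, 33 the same way but under 2-fold and 30 at 0 or opposite. Over all 5276 genes with several member probe sets, the others were at least 2-fold higher in 7.05% and at least 2-fold lower in 9.42%.

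**Figure D5:**
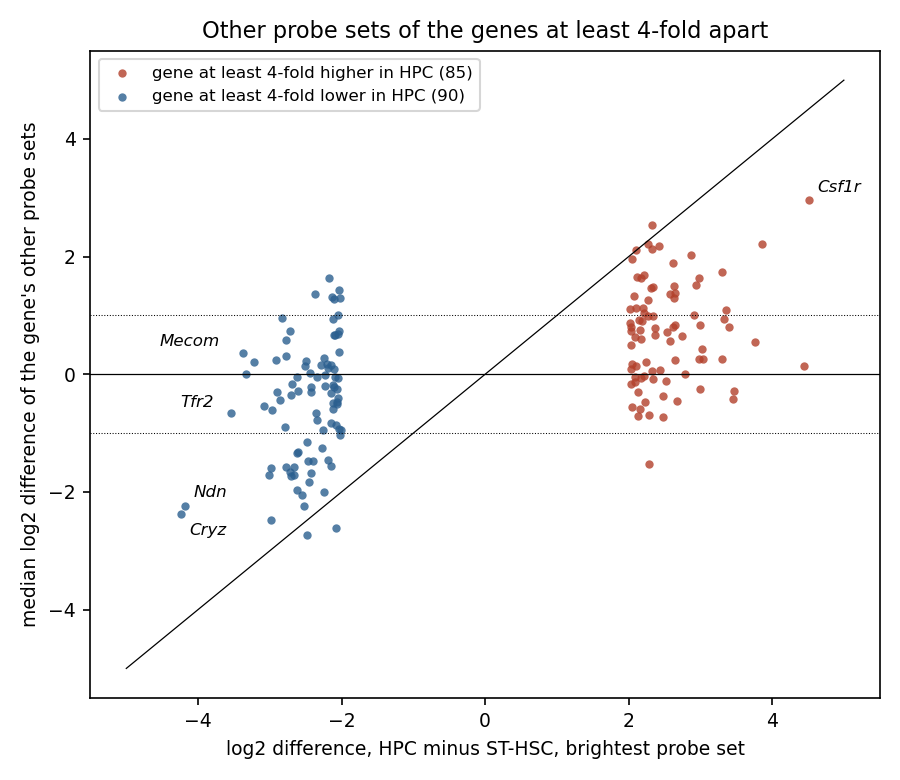
For the 175 genes at least 4-fold apart that have other member probe sets, the log2 difference of the brightest probe set (across) is set against the median of the gene's others (up); the solid line marks equal differences and the dotted lines 2-fold. Csf1r, Ndn and Cryz have others beyond 2-fold the same way, and the others of Mecom lie above 0.

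Genes with at least 3 member probe sets that all differed by 2-fold or more numbered 11 higher and 15 lower. These counts are not set against the total of genes with so many member probe sets. Among those higher were Csf1r, Fcgr2b, an inhibitory Fc receptor (1707 against 804), Ctsz, a lysosomal cathepsin (1675 against 629.7), F10, coagulation factor X (473 against 7.2), and Hspa1b, the inducible heat shock protein Hsp70 (22133 against 7848). The lower ones included Ldhb, a lactate dehydrogenase (897 against 2544), Pdk1, a kinase that restrains pyruvate dehydrogenase (1739.9 against 4314), and Nfkbiz, a regulator of NF-kappaB targets (1394 against 4692). Ldhb and Pdk1 bear on the fate of pyruvate. Of 17 glycolysis genes measured, 3 were at least 2-fold lower and 1 higher, against 9.05% and 9.41% of all genes. The 1 that was higher was Hk3, the hexokinase of myeloid cells (2301 against 430.0, 5.35-fold).

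Among the genes with the greatest excess in HPC that stood on no myeloid list, Anxa3, a calcium-dependent phospholipid-binding protein, read 3368 in HPC and 165 in ST-HSC (20.4-fold) and reached 25618 in granulocytes. Acod1, the enzyme that makes itaconate in activated macrophages, read 1839.7 and 14.6 (at least 15.3-fold), and Lpxn, the focal adhesion adaptor leupaxin, 2449.9 and 46.3 (at least 20.4-fold). The metallothioneins, which bind zinc and copper, were high together: Mt1 at 2010.2 against 145 (13.8-fold) and Mt2 at 2182 against 159 (13.8-fold), with LT-HSC at 1509 and 1824. Hpse, heparanase, was at least 14.3-fold higher and Slc16a10, an aromatic amino acid transporter, 14.5-fold higher. On the lower side, Cryz, a quinone oxidoreductase, read 146 in HPC and 2748 in ST-HSC (18.8-fold), and its second probe set differed by -2.38 in log2. Ttpa, the vitamin E transfer protein of liver, was at 201 against 1942 (9.66-fold), and Dph6, an enzyme of diphthamide synthesis, at 123 against 1645 (13.4-fold). Mctp2, a membrane protein with C2 domains, was at least 13.6-fold lower, Lonrf1 8.82-fold, Mamdc2 at least 9.27-fold, Zc4h2 at least 8.76-fold and Plxdc2 at least 8.31-fold. Mtx3, a metaxin of the mitochondrial outer membrane, was at least 8.47-fold lower by a probe set of shared sequence, but by -0.55 in log2 without such probe sets.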

How the data were processed

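Mouse HPC, ST-HSC, LT-HSC and granulocytes were each measured on 1 array, grouped by their titles. The authors deposited 1 table of probe set intensity, in linear units. The software that made it is not given in the sources used here. Per the labels' protocols, RNA of 50 to 200 cells was amplified in 2 rounds, which favours 3′ ends and adds noise that differs between arrays.

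The values were used as deposited, since the trimmed mean was 500.0 on every array. Of 45101 probe sets, 64 controls, 932 with several symbols and 9160 without one in the platform annotation were left out. Of the 34945 left, 34741 were found in RefSeq (GRCm38.p6) by Entrez number, and 0 symbols changed. A probe set entered with at least 1 signal of 120. Values under 120 were set to 120, and the difference is log2 of HPC minus log2 of ST-HSC. Each gene was represented by its brightest probe set. Genes past 4-fold, and list members past 2-fold, were counted; with 1 array per cell type no test was possible, so precision is limited by how few arrays there are.

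Named genes were the 15 with the greatest difference each way (higher signal at least at its array's 75th percentile, other member probe sets in the same direction), the first 10 each way with at least 3 member probe sets all past 2-fold, and list members past 2-fold, nearest 0 or of a stated role. The genes, 23 theme lists and 11 marker lists were chosen with earlier results of these data known. Counting was tested on simulated data, with large changes placed in genes well above the floor and less scatter than the SD of 0.67 found here. That checks the counting steps only and not the counts in these data. Alternatives were other floors, scalings, probe set choices and filters. Python 3.11.15, numpy 2.4.6, pandas 2.3.3 and matplotlib 3.10.9 were used.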

Additional observations from a re-analysis of the deposited data

How the results depend on the processing

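Under 11 alternatives, the count of genes at least 4-fold higher in HPC (196) was 339 with a floor of 60, 115 with a floor of 240 and 120 where both signals had to reach 120; under the others it lay between 138 and 277. The count lower (198) was 330, 100 and 114 under the same 3 and 126 with scaling to the hybridization controls. Of the 394 genes in either direction, 257 were still 4-fold the same way with the median over probe sets, 206 with a floor of 240 and 322 with the hybridization controls. Of 172 named genes, 112 were at least 2-fold the same way under every alternative that gave a value and 60 were not. Signs turned for Jam2, to 0.88 with the probe set brightest over the 4 arrays and 0.21 with the median over probe sets; for Selp, to -2.10 with a floor of 240 and -0.18 with that median; and for Tcf4, to -0.19 with that median. These values rest on another probe set of the gene, or on the median of all of them, and those probe sets differ in sign. Why the probe sets differ was not tested. Named genes just past 2-fold (Csf3r, Esam, Hlf and Cd27) went under it with the hybridization controls, and genes near the floor (Epor, Il7r, Hemgn, Hdc and Siglecf) with a floor of 240. The medians of the primary granule list (0.86 to 1.32), the receptors (1.26 to 1.79), the stem cell factors (-0.68 to -0.31) and the surface genes (-0.84 to -0.40) kept their sign. No paired analysis was possible because each cell type has 1 array, and for the same reason no replicate could be left out.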

Other observations

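Immediate early genes, which cells switch on within minutes of a stimulus or of handling, were dimmer in HPC than in ST-HSC in several cases. Fos read 926 in HPC, 5119 in ST-HSC, 1578 in LT-HSC and 21297 in granulocytes (5.53-fold lower in HPC than in ST-HSC). Fosb read 589, 2929, 500.4 and 1114 in that order (4.97-fold), and Egr1, a zinc finger factor of the same response, 2259, 6096, 3411 and 7027 (2.70-fold). Of the 3 immature populations, ST-HSC were highest for these 3 genes. Of the 23 genes of the immediate early and heat shock list, 5 were past 2-fold on the lower side and 2 on the higher. Over all genes, the shares were 9.05% lower and 9.41% higher. The list's median was -0.07, also of either sign under other processing. The 2 that were higher were the Hsp70 genes, Hspa1a at 20136 against 5318 and Hspa1b at 22133 against 7848.

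Of 23 interferon-stimulated genes measured, 5 were at least 2-fold lower in HPC and 0 higher (median -0.14, of either sign under other processing). The shares over all genes, for these and the lists that follow, were 9.05% lower and 9.41% higher. Rsad2, the antiviral enzyme viperin, read 340.0 in HPC and 2101 in ST-HSC (6.18-fold), with its 3 probe sets from -3.04 to 0.35 in log2, and Gbp2, a guanylate-binding protein, 928 and 2859 (3.08-fold). Antigen presentation genes were near even, with 1 of 20 higher, Tap1, a peptide transporter (2.58-fold, but -0.42 in log2 by its other probe set). Of 20 adhesion and homing genes, Itgb2 (2.57-fold) and Itgal (2.33-fold, but 0.18 in log2 by its other probe set), the subunits of the integrin LFA-1, were higher, and Esam and the LFA-1 ligand Icam2 were lower, Icam2 at 162 against 988 (6.11-fold). Of 29 ribosome assembly genes 1 was lower, and of 27 G1 regulators 3 were higher and 1 lower.

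Markers of other cells are given as counts past 2-fold, which 9.41% of all genes passed on the higher side and 9.05% on the lower. Of 8 T and NK markers measured 1 was at least 2-fold lower, Lat, a signalling adaptor (2.58-fold), and of 5 dendritic cell markers 1 was higher and 1 lower. Of 9 megakaryocyte and platelet markers 2 were higher and 2 lower and of 2 mature erythroid markers 1 was higher. None of the 5 oocyte markers measured was 2-fold apart, and of 4 cumulus cell markers 1 was higher, Ptgs2, cyclooxygenase 2 (527 against 42.7). Among metabolic genes with 3 member probe sets all past 2-fold, Hagh, which encodes glyoxalase II, was higher (1819 against 713), and Mthfd1, a folate enzyme, was lower (1685 against 3802). Rad54l, of homologous recombination, was lower at 143 against 1136 (7.94-fold), as was Bgn, the matrix proteoglycan biglycan, at 147 against 952 (6.50-fold).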
